A study of Mus musculus with 8 samples.

Results

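The 10 Krüppel-like factor genes described here are *Klf2*, *Klf3*, *Klf4*, *Klf5*, *Klf6*, *Klf7*, *Klf9*, *Klf10*, *Klf13* and *Klf15*, out of 52325 identifiers in the counts table. They were listed by symbol, and each was found by its Ensembl identifier in the counts of laser-captured endometrium. All 10 passed the filter on low counts and were among the 18174 genes tested. The samples were 4 WT mice and 4 *Thra1*PV/+ mice, all female and synchronised to metestrus, and *Thra1*PV/+ mice carry the dominant-negative PV mutation of thyroid hormone receptor α1 as a knock-in at 1 *Thra* allele, in every cell that uses the gene. Ages of these mice are not given in the sources used here. Each library is 1 sample of polyadenylated RNA from dissected frozen sections, so the measurements are averages over epithelium, stroma, vessels and immune cells. In bulk samples of this kind, fewer cells of a type and less RNA per cell cannot be told apart.

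Krüppel-like factors are transcription factors that bind GC-rich and CACCC elements through 3 zinc fingers at their carboxyl end, while their amino ends differ and recruit activators or repressors. *Klf9* is a classic direct target of the liganded thyroid hormone receptor and of the glucocorticoid receptor, and in the uterus its product works with the progesterone receptor. *Klf9*, *Klf10* and *Klf13* encode repressors that bind the Sin3A complex, *Klf3* a repressor that binds CtBP, *Klf4* and *Klf5* regulators of epithelial growth and differentiation, *Klf2* a shear-responsive factor of endothelium, *Klf6* and *Klf7* broadly expressed activators, and *Klf15* a glucocorticoid-induced regulator of metabolism. The question addressed was whether the other members followed *Klf9* in mutant endometrium or moved against it.

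The sequence before the annotated start was available for 8 of the 10 members, all but *Klf5* and *Klf10*, from RefSeq on build GRCm38.p6. Shown here are 250 bases upstream of *Klf9*, the thyroid hormone target, and of *Klf15* and *Klf2*, the other members whose levels ran closest to *Klf9* over the libraries. Each is written 5′ to 3′ on the gene's plus strand, with matches to GGGCGG (a GC box) and to CACCC in capitals, and a GGGTG in capitals is a CACCC on the other strand. The windows are chr19:23140976-23141225 for *Klf9*, chr6:90462326-90462575 for *Klf15* and chr8:72318812-72319061 for *Klf2*, and each lies directly before the RefSeq start. The GENCODE start of *Klf2*, 72319033, lies inside its window, so the end of that window, with the marked GGGTG, is within the gene by the GENCODE coordinates given for the members.
Klf9: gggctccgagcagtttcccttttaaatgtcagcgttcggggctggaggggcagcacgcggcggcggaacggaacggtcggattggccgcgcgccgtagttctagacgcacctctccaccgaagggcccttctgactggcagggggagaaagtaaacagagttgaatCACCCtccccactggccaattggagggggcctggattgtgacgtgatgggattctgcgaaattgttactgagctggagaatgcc
Klf15: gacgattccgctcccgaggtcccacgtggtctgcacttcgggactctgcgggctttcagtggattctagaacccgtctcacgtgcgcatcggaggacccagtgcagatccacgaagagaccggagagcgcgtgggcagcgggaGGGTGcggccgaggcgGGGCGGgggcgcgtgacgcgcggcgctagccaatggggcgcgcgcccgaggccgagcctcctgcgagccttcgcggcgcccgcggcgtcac
Klf2: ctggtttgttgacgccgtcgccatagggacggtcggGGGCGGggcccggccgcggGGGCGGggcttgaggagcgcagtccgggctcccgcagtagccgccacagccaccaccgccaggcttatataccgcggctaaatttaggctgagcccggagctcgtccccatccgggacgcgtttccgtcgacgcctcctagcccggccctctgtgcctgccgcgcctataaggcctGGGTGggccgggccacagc
The *Klf9* window held 1 CACCC and no GGGCGG, the *Klf15* window 1 of each, and the *Klf2* window 2 GGGCGG and 1 CACCC. Of 32851 mouse windows of this length, 52% held CACCC and 32.7% held GGGCGG on either strand. No 2 matches overlapped in the 3 windows shown. The thyroid hormone receptor half-site AGGTCA and the steroid receptor half-site AGAACA, searched on both strands, were in none of the 8 member windows, against 14% and 16.1% of all windows. These matches describe letters only, and a missing match says nothing about receptor binding elsewhere.

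The libraries held between 48791883 and 59819099 estimated counts. The stratified squamous markers (11 listed genes, of which 10 were called, led by *Ivl*, *Trp63*, *Lgals7* and *Dsc3*) summed to 2933 to 4613 CPM (counts scaled to the library size) in *Thra1*PV/+ and to 1.58 to 67.1 CPM in WT libraries, without overlap. Stroma and muscle varied within genotypes. The 12 stromal markers summed to 6661, 6591, 2078 and 2406 CPM in WT libraries 1 to 4 and to 6881, 693, 1462 and 1872 CPM in *Thra1*PV/+ libraries 1 to 4, and the 8 smooth muscle markers summed to 13140 CPM in WT library 1 against 146 to 1146 CPM in the other 7 libraries. None of the 8 was called, and all 8 were lower in mutants at an unadjusted p under 0.05, led by *Actg2* (log2 fold change -5.17) and *Myh11*. *Thra* itself, which the mutation alters in sequence and not by deletion, differed by 0.04 ± 0.39 (log2 fold change ± SE, adjusted p = 0.987), so its level does not check the genotype labels.

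*Klf9* was 4.07-fold lower in *Thra1*PV/+ endometrium, the widest difference of the 10, and *Klf10* was the member most clearly higher, by 1.81-fold. *Klf13* was 1.40-fold lower with little spread. *Klf2* and *Klf15* had lower averages, with their highest values in WT libraries 1 and 2, and *Klf3*, *Klf4*, *Klf5*, *Klf6* and *Klf7* varied more between libraries of a genotype than between genotypes. A call required at least a 2-fold difference and a Benjamini-Hochberg adjusted p no greater than 0.1 in edgeR's quasi-likelihood test over all 18174 genes. None of the 10 members was called, where 0.99% of all genes were called. At an unadjusted p under 0.05, which is no correction for the number of genes, 4 of 10 members differed (*Klf2*, *Klf9* and *Klf13* lower and *Klf10* higher), against 9.77% of all genes in either direction and 4.72% in the lower direction. Leaving out 1 library moved that count between 3 and 7, with 7 without WT library 3. By DESeq2, the tool the authors used, the same rule called 1 member, *Klf9*, where it called 2.64% of 29984 genes. That is a wider set than the 18174 genes of edgeR, so the 2 shares are not directly comparable. The median log2 fold change of the 10 members was -0.26, beside -0.05 over all tested genes.

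**Figure D1:**
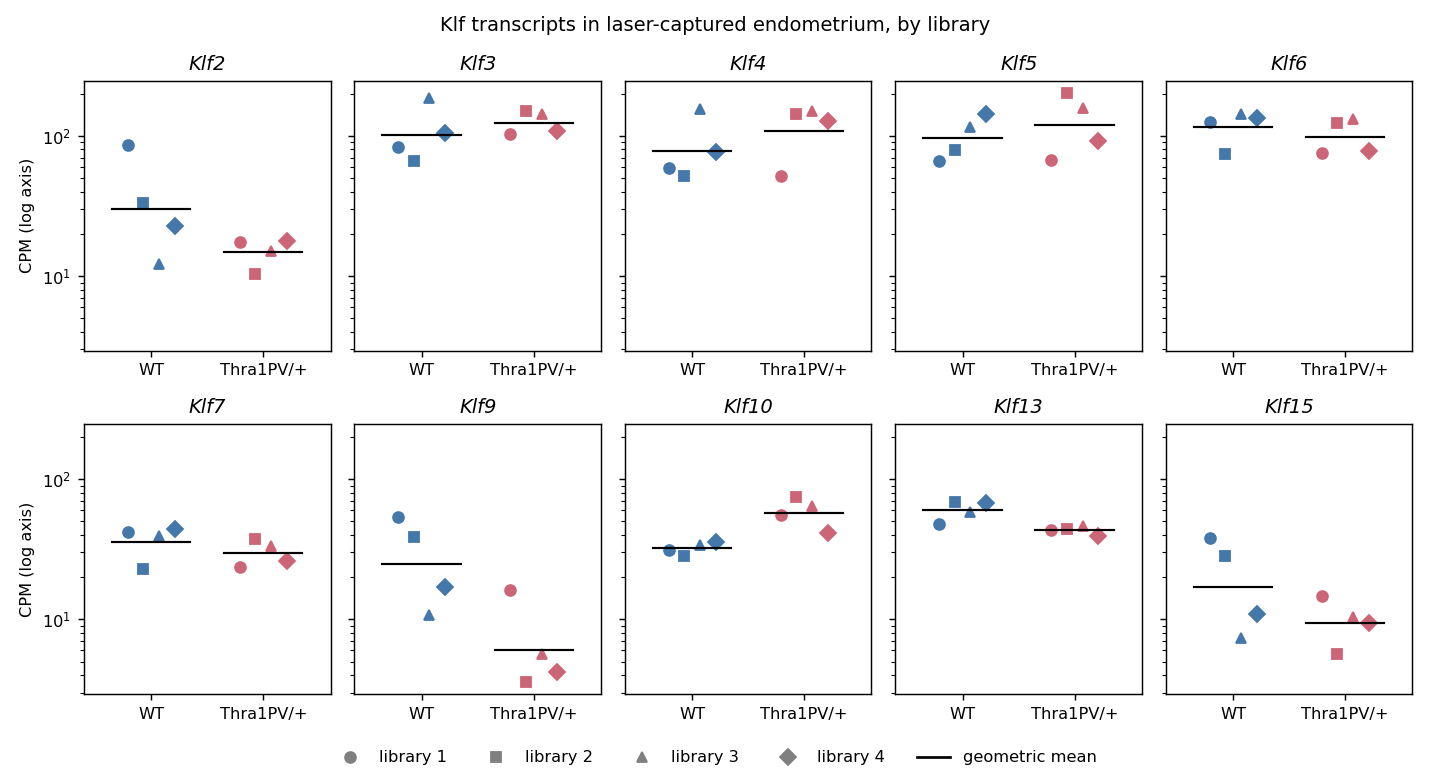
CPM (log axis) of the 10 Klf transcripts in each of 4 WT and 4 *Thra1*PV/+ libraries, with marker shape for the library number and a line at the geometric mean of a genotype. The genotypes are apart in *Klf10* and *Klf13*, *Klf9* overlaps through *Thra1*PV/+ library 1, and the WT libraries of *Klf2*, *Klf9* and *Klf15* spread widely.

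*Klf9* (chromosome 19, 23141226 to 23168134, plus strand) measured 54.1, 38.5, 10.7 and 17.1 CPM in WT libraries 1 to 4 and 16.1, 3.59, 5.62 and 4.22 CPM in *Thra1*PV/+ libraries 1 to 4. WT libraries 1 and 2 were highest, the lowest 3 values were all from mutant mice, and the genotypes overlapped because *Thra1*PV/+ library 1 lay above WT library 3. The log2 fold change was -2.02 ± 0.65 (SE, n = 4 per genotype), with an adjusted p of 0.351 by edgeR and an exact two-sided permutation p of 0.0571 on log2 CPM, where 0.0286 is the smallest that 4 against 4 can give. DESeq2 gave -2.00 with an adjusted p of 0.0524. Leaving out each library in turn moved the log2 fold change between -2.70, without *Thra1*PV/+ library 1, and -1.54, without WT library 1, and *Klf9* was called by edgeR in none of these fits. WT library 1 also held the smooth muscle RNA, whose part in the value was not tested beyond leaving that library out.

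*Klf13* (chromosome 7, 63886351 to 63938915, minus strand), a close relative of *Klf9* in the family, measured 47.9, 69.0, 58.4 and 67.4 CPM in WT libraries and 43.3, 44.0, 46.2 and 39.5 CPM in *Thra1*PV/+ libraries. Every mutant library was below every WT library, although the gap between WT library 1 and *Thra1*PV/+ library 3 was small. The log2 fold change was -0.49 ± 0.14 (SE, n = 4 per genotype; edgeR adjusted p = 0.284; exact permutation p = 0.0286, the smallest possible). Its mutant libraries had an SD of 0.10 on the log2 scale, against 0.97 for *Klf9*.

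*Klf10* (chromosome 15, 38291463 to 38300706, minus strand), known as an early gene of TGF-β signalling, measured 31.3, 28.5, 34.1 and 35.8 CPM in WT and 55.1, 74.2, 64.5 and 41.3 CPM in *Thra1*PV/+ libraries. The 4 WT values lay close together, and all 4 mutant values lay above them. The log2 fold change was 0.86 ± 0.19 (SE, n = 4 per genotype; edgeR adjusted p = 0.127; exact permutation p = 0.0286, the smallest possible). DESeq2 gave an adjusted p of 0.00894 with a log2 fold change of 0.89, short of the 2-fold limit, so it was not called there either. *Klf10* and *Klf13* were the 2 of 10 members whose genotypes did not overlap, 1 in each direction, and 6.04% of all tested genes did not overlap.

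*Klf2* (chromosome 8, 72319033 to 72321656, plus strand) measured 86.6, 33.4, 12.1 and 22.9 CPM in WT and 17.4, 10.3, 15.2 and 17.9 CPM in *Thra1*PV/+ libraries. WT library 1 stood far above the rest, and WT library 3 was lower than 3 of the mutant libraries. The log2 fold change was -1.35 ± 0.55 (SE; edgeR adjusted p = 0.478; exact permutation p = 0.143) and came to -0.54 without WT library 1. Of the 8 fits without 1 library, those without WT library 3 or WT library 4 kept the unadjusted p under 0.05. WT library 1 also held the highest summed level of the 10 endothelial markers, 407 CPM against 109 to 334 CPM in the others, beside its smooth muscle RNA. *Tek* was 76.9 CPM there against 15.5 CPM in *Thra1*PV/+ library 1, which had the next highest sum. *Cdh5* and *Kdr* were highest in *Thra1*PV/+ library 1 (72.2 and 31.7 CPM) and *Emcn* in WT library 2 (30.6 CPM). The other endothelial markers were highest in WT library 1. None of these 10 markers was called or under an unadjusted p of 0.05, with *Tek* (-1.84, adjusted p = 0.549) and *Esam* (-0.45, adjusted p = 0.678) at the smallest p. The part of vessels and muscle in the *Klf2* difference was not tested.

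*Klf15* (chromosome 6, 90462576 to 90475238, plus strand) measured 37.7, 28.3, 7.30 and 10.8 CPM in WT and 14.8, 5.66, 10.3 and 9.39 CPM in *Thra1*PV/+ libraries. WT libraries 1 and 2 were again the highest, and WT libraries 3 and 4 lay within the mutant range. The log2 fold change was -1.07 ± 0.54 (SE; edgeR adjusted p = 0.580; exact permutation p = 0.257) and shrank to -0.58 without WT library 1.

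*Klf4* (chromosome 4, 55527143 to 55532466, minus strand) measured 59.4, 51.7, 155 and 76.3 CPM in WT and 51.4, 143, 151 and 127 CPM in *Thra1*PV/+ libraries. *Thra1*PV/+ library 1 was the lowest of all 8 and WT library 3 the highest. The log2 fold change was 0.46 ± 0.43 (SE; edgeR adjusted p = 0.795). *Klf5* (chromosome 14, 99298691 to 99315036, plus strand) measured 66.3, 79.0, 116 and 143 CPM in WT and 67.8, 201, 158 and 91.7 CPM in *Thra1*PV/+ libraries, with the highest 2 values from mutant mice and the others interleaved. Its log2 fold change was 0.36 ± 0.38 (SE; edgeR adjusted p = 0.825). The normal 95% interval of the log2 fold change ran from -0.38 to 1.31 for *Klf4* and from -0.38 to 1.11 for *Klf5*, so a difference past 2-fold in the higher direction and a small one in the lower direction both lay within it.

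The remaining members, *Klf3*, *Klf6* and *Klf7*, overlapped between genotypes. *Klf3* ranged from 65.7 to 186 CPM in WT and from 103 to 150 CPM in *Thra1*PV/+ libraries, with a log2 fold change of 0.19 ± 0.32 (SE; edgeR adjusted p = 0.8998). *Klf6* ranged from 74.6 to 143 CPM and from 75.0 to 133 CPM, with -0.22 ± 0.27 (SE; edgeR adjusted p = 0.850). *Klf7* ranged from 23.0 to 44.1 CPM and from 23.7 to 37.4 CPM, with -0.30 ± 0.24 (SE; edgeR adjusted p = 0.753). In *Klf6* and *Klf7* WT library 2 was the lowest of the WT values, as was its mean of the 14 immediate-early genes (3.66 against 4.596 to 5.59 log2 CPM in the other WT libraries).

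**Figure D2:**
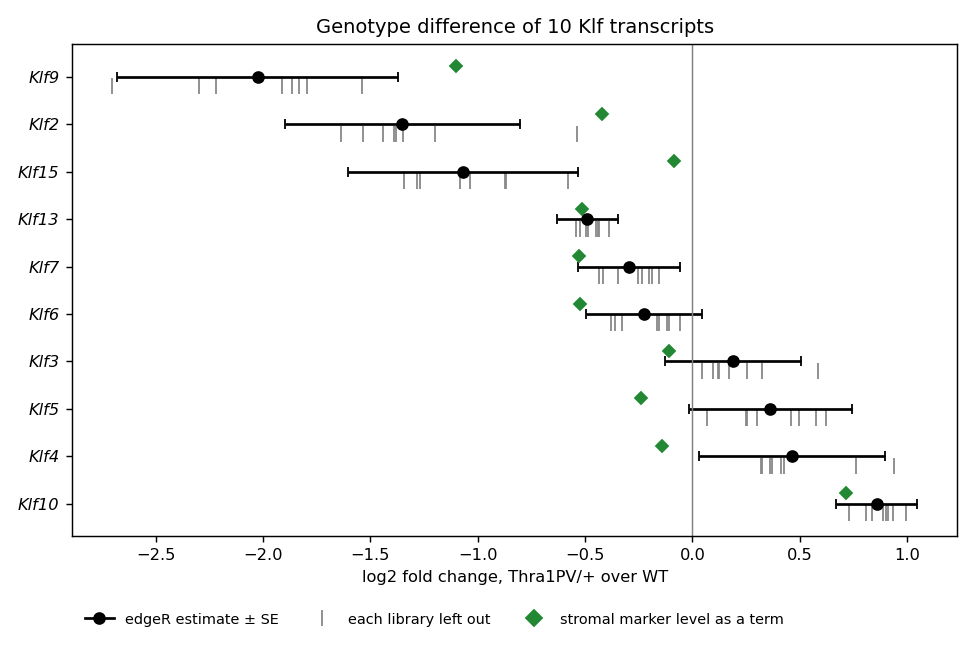
Log2 fold change of each Klf transcript, *Thra1*PV/+ over WT, by edgeR (black points, SE bars, 4 libraries per genotype), after leaving out each library (grey ticks) and with the stromal marker level as a further term (green diamonds). *Klf9* runs from -2.70 to -1.54 over the ticks and is -1.10 at its diamond, *Klf15* comes to -0.09 there, and *Klf10* and *Klf13* hardly move.

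Whether members followed *Klf9* was measured inside each library as the log2 CPM of a member minus that of *Klf9*, for the other 9 members. The mean difference was larger in *Thra1*PV/+ than in WT for all 9, by 1.01 (*Klf2*) to 2.85 (*Klf10*) on the log2 scale. That direction follows from *Klf9* having the lowest log2 fold change of the 10, and the same direction was found for 98.9% of all genes. Since all 9 share *Klf9* as the reference and the same 8 libraries, they are not separate results. The genotypes did not overlap for 2 of the 9, *Klf10* and *Klf15*, where 21.2% of all genes did not overlap by this measure, so the share of members was near that of all genes.

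For *Klf15* the difference from *Klf9* was -0.52, -0.44, -0.55 and -0.65 in WT libraries 1 to 4 and -0.13, 0.65, 0.87 and 1.15 in *Thra1*PV/+ libraries 1 to 4. WT libraries held *Klf15* and *Klf9* at a nearly fixed ratio, with a mean of -0.54 ± 0.09 (SD, n = 4), while *Klf9* itself varied about 5-fold among them from 10.7 to 54.1 CPM. In *Thra1*PV/+ libraries the mean was 0.64 ± 0.55 (SD, n = 4), and the difference between genotypes was 1.18 (exact permutation p = 0.0286, the smallest possible). The p was 0.0571 after leaving out any 1 WT library. As *Klf9* is part of this measure and was itself lower in mutants, the values describe the pair and show no change of *Klf15* by itself.

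For *Klf10* the difference from *Klf9* was -0.79, -0.44, 1.67 and 1.07 in WT and 1.77, 4.35, 3.51 and 3.28 in *Thra1*PV/+ libraries, with 2.85 between genotypes (exact permutation p = 0.0286, and 0.0571 after leaving out any 1 library but *Thra1*PV/+ library 1). *Klf10* and *Klf9* differed from each other in direction, the first higher and the second lower in mutants. *Klf4* minus *Klf9* was larger by 2.51 in mutants and *Klf5* minus *Klf9* by 2.32 (exact permutation p = 0.0857 for both), with overlap through *Thra1*PV/+ library 1. Without that library the genotypes did not overlap for any of the 9 members, but 84.3% of all genes then did not overlap either, so this count says nothing particular about the members. *Klf13*, also lower in mutants, was lower by less than *Klf9*, with a difference of 1.54 (exact permutation p = 0.0857).

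**Figure D3:**
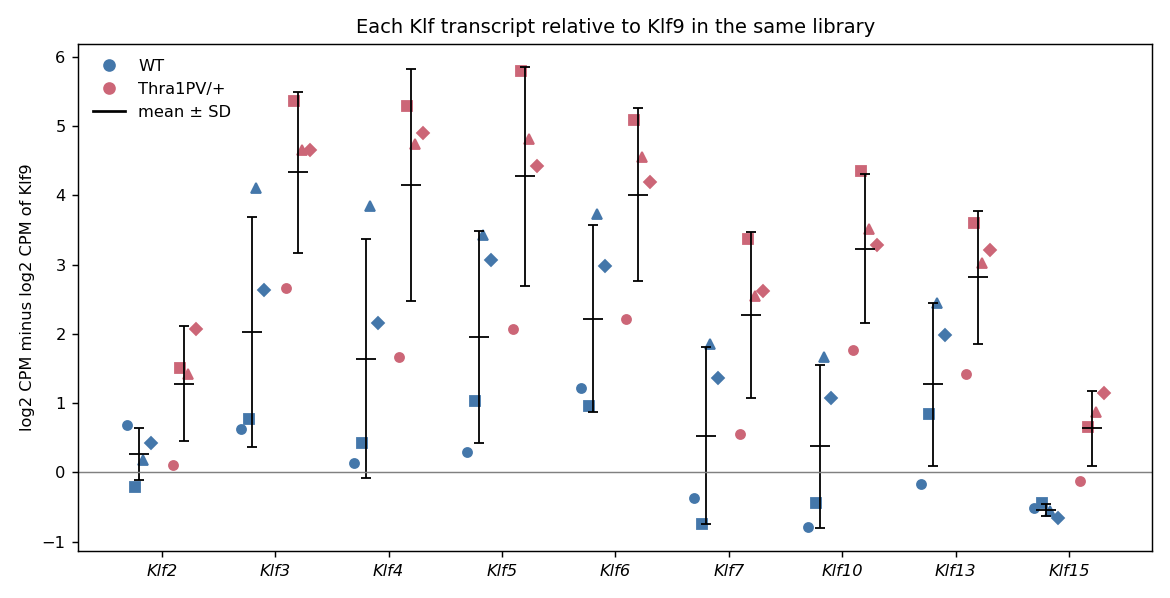
Log2 CPM of 9 Klf transcripts minus that of *Klf9* in the same library, for WT (blue) and *Thra1*PV/+ (red), with mean and SD over 4 libraries. *Klf15* sits between -0.65 and -0.44 in WT and between -0.13 and 1.15 in *Thra1*PV/+, and the other members except *Klf10* overlap through *Thra1*PV/+ library 1.

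Stromal RNA moved with *Klf9* and *Klf15*, and with *Klf2* in WT but not in mutant libraries. The mean log2 CPM of the 12 stromal markers was 8.60, 8.56, 6.44 and 7.14 in WT libraries 1 to 4. In *Thra1*PV/+ libraries 1 to 4 it was 8.29, 5.25, 6.19 and 6.58. By this mean, WT libraries 1 and 2 and *Thra1*PV/+ library 1 were rich in stroma. All 12 markers had negative log2 fold changes (median -0.67), none was called, and *Dcn* alone did not overlap (-2.24, edgeR adjusted p = 0.355), with *Hoxa10* next by p (-2.01, adjusted p = 0.627). Set against that level, *Klf9* was -2.84, -3.29, -3.01 and -3.04 log2 units from the marker mean in WT and -4.28, -3.39, -3.69 and -4.49 in *Thra1*PV/+ libraries. The WT values lay closer together than before, and all 4 mutant values were below them, though *Thra1*PV/+ library 2 only just. The means were -3.05 ± 0.18 and -3.96 ± 0.51 (SD, n = 4 each), a difference of -0.92, or 1.89-fold (exact permutation p = 0.0286, the smallest possible). Leaving out each library in turn gave -1.11 to -0.74.

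*Klf9* was the 1 member of 10 that did not overlap between genotypes on this measure, where 4.54% of 18162 other tested genes did not overlap. *Klf15*, by the same measure, was -3.36, -3.73, -3.56 and -3.70 in WT and -4.41, -2.74, -2.82 and -3.34 in *Thra1*PV/+ libraries, with mutant libraries on both sides of a narrow WT range and a difference of 0.26 (exact permutation p = 0.486). *Klf2* was at -4.165 in *Thra1*PV/+ library 1 and from -2.41 to -1.89 in the other mutant libraries, against -3.49 to -2.16 in WT libraries. Its difference between genotypes was 0.10 (exact permutation p = 0.857). With the stromal marker level as a term in the edgeR fit, the log2 fold change was -1.10 ± 0.26 for *Klf9* (adjusted p = 0.110), -0.09 ± 0.35 for *Klf15* and -0.42 ± 0.53 for *Klf2*. This measure and term were chosen after seeing the data, and the stromal markers can themselves differ between genotypes. At like means, single markers differed. *Dcn* was 312 CPM in *Thra1*PV/+ library 1 against 1049 and 725 CPM in WT libraries 1 and 2. *Lum*, *Hoxa10*, *Hoxa11* and *Nr2f2* were also lower there. *Col3a1* was 2225 CPM against 1326 and 1520 CPM, and *Col1a1*, *Col1a2* and *Hand2* were also higher. *Pdgfra*, *Pdgfrb* and *Vim* lay between the WT values. How this split bears on *Klf9* was not tested.

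**Figure D4:**
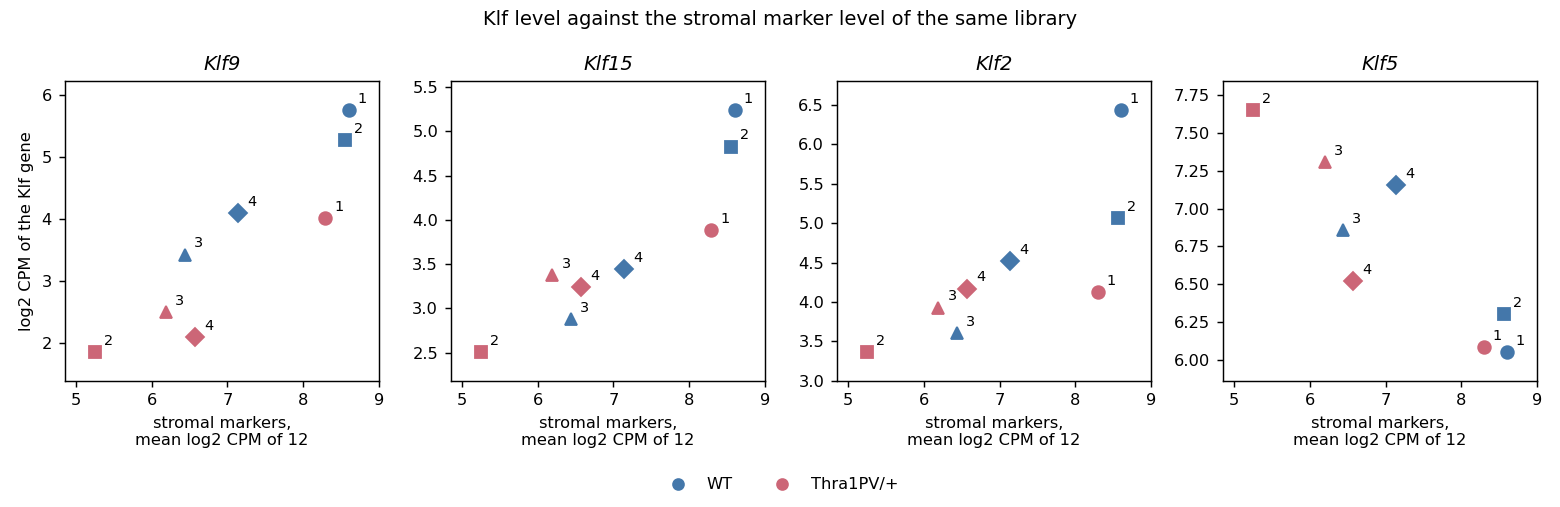
Log2 CPM of *Klf9*, *Klf15*, *Klf2* and *Klf5* against the mean log2 CPM of 12 stromal markers in the same library, with WT in blue, *Thra1*PV/+ in red and the library number beside each point. *Klf9* lies lower in mutant than in WT libraries at like marker means, although single markers differ there. For example, it is 16.1 CPM in *Thra1*PV/+ library 1 against 54.1 and 38.5 CPM in WT libraries 1 and 2. *Klf5* is lowest in the 3 libraries richest in stroma by this mean.

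*Klf3*, *Klf4*, *Klf5* and *Klf10* were not highest in the libraries rich in stroma. *Klf5* was lowest, between 66.3 and 79.0 CPM, in the 3 libraries richest in stroma. With the stromal marker level as a term, the log2 fold changes of *Klf3*, *Klf4* and *Klf5* changed sign to -0.11, -0.14 and -0.24, each within about 1 SE of 0 (SE 0.22 for each), and that of *Klf10* was 0.71 ± 0.19. *Klf4* and *Klf5* are known from squamous and columnar epithelium, and the squamous markers were higher in all mutant libraries while the 12 tested columnar and gland markers had a median log2 fold change of -0.06 with none called (*Wnt7a* 0.81 and *Cldn4* 0.81 at the smallest p). The part of squamous RNA in the values of *Klf4* and *Klf5* was not tested.

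Levels of different genes were compared per transcript length, as the authors' length-normalized TPM. In WT endometrium the medians over 4 libraries ran from *Klf5* (44.5 TPM), *Klf6* (38.6), *Klf4* (32.6), *Klf2* (30.8) and *Klf3* (25.3) to *Klf10* (15.4), *Klf15* (13.9), *Klf13* (13.6), *Klf9* (11.9) and *Klf7* (6.92 TPM). Of the neighbours in this order, *Klf3* and *Klf10* alone had ranges that did not overlap. In *Thra1*PV/+ endometrium the order of medians was *Klf4* (65.4 TPM), *Klf5* (58.4), *Klf3* (36.4), *Klf6* (31.9), *Klf10* (29.1), *Klf2* (16.9), *Klf13* (9.14), *Klf15* (7.49), *Klf7* (5.20) and *Klf9* (2.06 TPM). There, *Klf10* lay above *Klf2* and *Klf2* above *Klf13* without overlap, and all other neighbours overlapped.

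**Figure D5:**
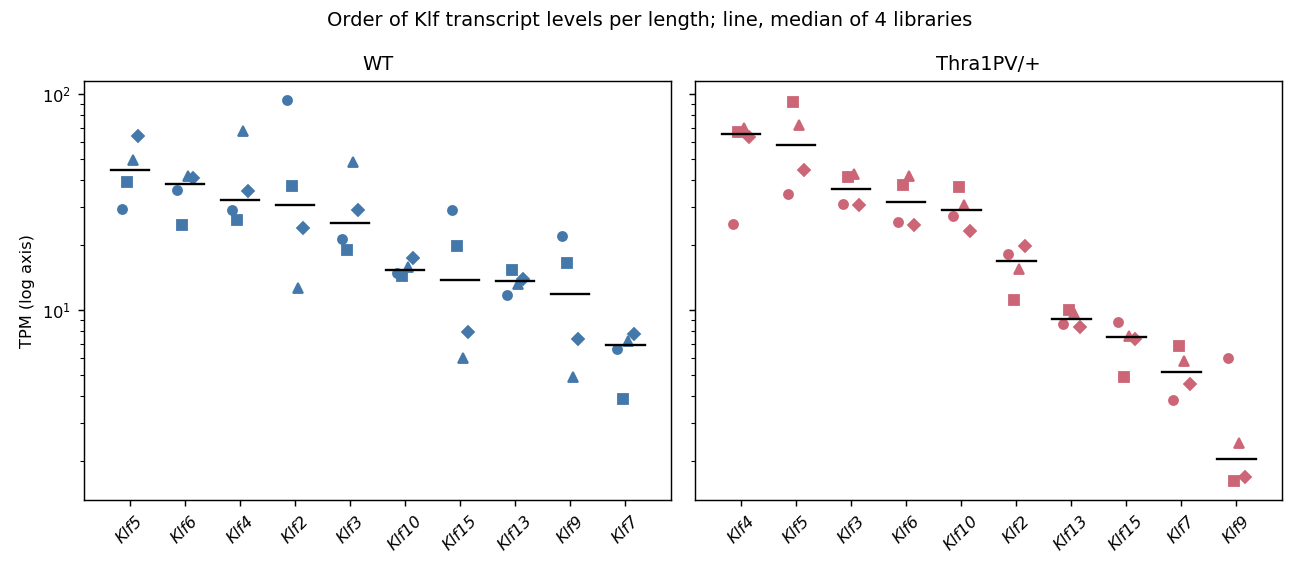
Levels per length (TPM, log axis) of the 10 Klf transcripts in 4 WT and 4 *Thra1*PV/+ libraries, ordered by the median of the genotype (line). *Klf9* has the lowest median in *Thra1*PV/+, 2.06 TPM, and the ninth in WT, 11.9 TPM.

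*Klf9* was 10th of 10 in *Thra1*PV/+ libraries 2, 3 and 4 and 9th in library 1, and in WT libraries it was 6th, 7th, 10th and 10th. In both genotypes the epithelial factors *Klf4* and *Klf5* were among the most abundant members, and *Klf10* was 5th by median in mutants against 6th in WT.

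Likeness of other genes to *Klf9* was the root mean square (RMS) difference of centred log2 CPM over the 8 libraries, among 10736 genes with a mean of at least 3 log2 CPM. The closest were *Svep1* (RMS 0.32), a matrix adhesion protein, *Epdr1* (0.35), *Bicc1* (0.46), an RNA-binding protein, *Mfap5* (0.48), a microfibril protein, and *Lhfp* (0.49). All 5 were lower on average in mutants and none was called. On log2(TPM + 1), 3 of these 5 (*Epdr1*, *Mfap5* and *Bicc1*) were again among the closest 5, and *Tgfbr3* and *Atp2a3* took the places of *Svep1* and *Lhfp*. *Mfap5*, for example, measured 126, 134, 53.9 and 103 CPM in WT and 84.9, 21.9, 30.7 and 29.5 CPM in *Thra1*PV/+ libraries, again high in *Thra1*PV/+ library 1.

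Among the other members, *Klf15* was the closest to *Klf9*, at rank 77 (RMS 0.68), and *Klf2* followed at rank 143 (0.75). *Klf13* was at rank 1994, and *Klf4* was the farthest, at rank 10211 (1.93). The genes closest to *Klf15* were *Gng11*, *Hoxd8* and *Chst12* (RMS 0.20 to 0.23), of which *Hoxd8* is a homeobox gene. Closest to *Klf4* were *Hook2*, *Fam102a* and *Esrp2* (0.23 to 0.24), the last a splicing regulator of epithelial cells. Closest to *Klf5* were *Gmppb*, *Hyou1*, a chaperone of the endoplasmic reticulum, and *Gm49759* (0.12 to 0.15).

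Of the other Klf genes, *Klf8*, *Klf11*, *Klf12* and *Klf16* were tested and none differed at an unadjusted p under 0.05 (edgeR log2 fold changes from -0.05 to 0.49, the latter *Klf8*), while *Klf1*, *Klf14* and *Klf17* did not pass the filter on low counts, with at most 19 counts in any library. *Klf11*, a Sin3A-binding relative of *Klf10*, measured 15.3 to 30.4 CPM in WT and 17.8 to 33.3 CPM in *Thra1*PV/+ libraries, with full overlap (log2 fold change 0.07 ± 0.26, edgeR adjusted p = 0.963). Among the related Sp factors, which share the zinc finger domain, *Sp6* alone of 7 tested was called. *Sp6*, known from tooth, hair and skin epithelium, measured 0.42, 0.58, 0.60 and 0.44 CPM in WT and 4.43, 6.11, 5.70 and 4.29 CPM in *Thra1*PV/+ libraries. The groups were far apart, with a log2 fold change of 3.33 ± 0.29 (SE; edgeR adjusted p = 0.00345), in the libraries that also held the squamous markers, and the part of squamous RNA was not tested.

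The 12 genes of cofactors that these factors bind, such as Sin3A, CtBP and histone deacetylase subunits, were nearly level (median log2 fold change -0.04), with none called. *Sap30*, a Sin3A complex subunit, had the smallest p (0.59 ± 0.23, edgeR adjusted p = 0.451), and *Hdac2* the next (-0.30 ± 0.15, adjusted p = 0.575).

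Other genes known to respond to thyroid hormone were set beside *Klf9*. Of 7 tested, none was called, and 2 were lower at an unadjusted p under 0.05, both without overlap of genotypes. Over all tested genes, 4.72% were lower at that p, and 453 of 18174 were lower without overlap. *Dio3*, which inactivates thyroid hormone and is a TRα1 target, measured 2.16, 0.51, 2.84 and 3.60 CPM in WT and 0.26, 0.28, 0.41 and 0.44 CPM in *Thra1*PV/+ libraries (log2 fold change -2.70 ± 0.59, edgeR adjusted p = 0.127). *Dio1*, which activates the hormone, measured 5.50, 6.95, 14.9 and 6.03 CPM in WT and 3.93, 1.81, 0.88 and 4.15 CPM in mutants (-1.63 ± 0.56, adjusted p = 0.373). *Dio3* was highest in WT library 4 and *Dio1* in WT library 3, the WT libraries in which *Klf9* and the stromal markers were lowest. The median log2 fold change of the 7 genes was -0.17, with 3 positive and 4 negative.

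*Klf9* and *Klf15* are also known glucocorticoid targets. All 9 genes of the glucocorticoid-induced list had negative log2 fold changes (median -0.58), none was called and 2 were lower at an unadjusted p under 0.05. In *Sgk1*, *Mt2* and *Errfi1*, 1 WT library stood far above the rest. Every mutant value of *Sgk1* (58.6 to 84.5 CPM) exceeded WT libraries 1, 3 and 4 (54.6, 23.5 and 21.0 CPM). Its negative sign (-0.08) thus came from WT library 2, at 212 CPM. *Mt2* peaked at 303 CPM in WT library 2, and no other library passed 72 CPM. *Errfi1* peaked at 367 CPM in WT library 1, and no other library passed 143 CPM. *Tsc22d3*, a classic glucocorticoid-induced gene, measured 151, 217, 54.1 and 45.4 CPM in WT and 75.4, 21.7, 41.1 and 49.1 CPM in *Thra1*PV/+ libraries (-1.32 ± 0.57, edgeR adjusted p = 0.505), and *Zbtb16* differed by -3.18 ± 1.23 (adjusted p = 0.447). The mean of the 9 genes was 5.50 and 5.57 log2 CPM in WT libraries 1 and 2 and 4.25 to 4.56 in the other 6, so by this mean the same 2 WT libraries were high as for *Klf9* and *Klf15*. *Thra1*PV/+ library 1 was at 4.56, with a stromal marker mean of 8.29 log2 CPM against 8.60 and 8.56 in those 2 libraries. Not every gene of the list had this pattern. *Cebpd* was lowest among WT in libraries 1 and 2 (86.0 and 26.7 CPM, against 173 and 223 CPM in libraries 3 and 4). *Pdk4* was highest in WT library 3 (9.33 CPM) and lowest in WT library 2 (1.19 CPM). The part of glucocorticoids and of stroma in the *Klf9* and *Klf15* values was not tested.

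The 10 estrogen and progesterone response genes had none called and none at an unadjusted p under 0.05 by edgeR, with *Fst* (-2.04 ± 0.91, adjusted p = 0.528) and *Ptch1* (-0.85 ± 0.46, adjusted p = 0.612) at the smallest p. Their summed CPM, mostly *Ltf*, was 3438, 2347, 16730 and 12840 in WT libraries 1 to 4. In *Thra1*PV/+ libraries 1 to 4 it was 5413, 10280, 11820 and 9204. WT library 2 was thus the lowest, and WT library 1 the next above it. Among others, *Ihh* ran the other way (41.6, 122, 0.62 and 23.0 CPM in WT), as did *Fst* (38.2, 34.4, 1.11 and 8.14 CPM). How this spread bears on the Klf values was not tested. None of the 14 immediate-early genes was called or at an unadjusted p under 0.05, with *Junb* at 0.76 ± 0.53 (adjusted p = 0.707) and *Ier2* at 0.25 ± 0.19 (adjusted p = 0.733), and their median log2 fold change was 0.12. *Klf10*, *Klf4*, *Klf6* and *Klf2* are themselves known as rapidly induced genes. Leukocyte markers had a median log2 fold change of 1.14, with none of 10 called and 5 higher at an unadjusted p under 0.05, led by *Cd79a* (2.58, edgeR adjusted p = 0.341) and *Jchain* (3.06, adjusted p = 0.342), and their part in the *Klf10* and *Klf2* values was not tested.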

How the data were processed

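Laser-captured endometrium of 4 WT and 4 *Thra1*PV/+ mice was profiled by RNA-seq. Groups and replicate numbers follow the sample labels. The authors trimmed paired-end reads of stranded mRNA libraries with Trimmomatic, quantified them with Salmon for mouse genome mm10 and used DESeq2; versions are not given in the sources used here. They deposited estimated counts per gene, not normalized, and TPM values per gene. Sorted TPM values differed by at most 0.291 TPM between libraries, the form quantile normalization gives. 1 further TPM column, matched to no sample, was not used.

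Estimated counts were rounded and tested with edgeR 4.0.16 (R 4.3.3, limma 3.58.1): filterByExpr (minimum count 10, minimum total 15), TMM, quasi-likelihood test of genotype, and Benjamini-Hochberg adjustment over 18174 genes. Calls required at least a 2-fold difference and an adjusted p no greater than 0.1, the authors' thresholds. Log2 CPM used a prior count of 2. An SE is the absolute log2 fold change divided by the square root of F. Single values were compared by exact two-sided permutation over 70 arrangements. DESeq2 1.42.0, voom, TPM, other scalings and filters, each library left out and a replicate block were alternatives.

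Library totals ran from 48791883 to 59819099 counts. For genes with few counts, such as *Sp6* in WT and *Dio3* in *Thra1*PV/+ libraries, counting error is a large part of the spread. Members and lists were chosen with earlier results of these data known. Named genes were all 10 members, the 5 genes closest to *Klf9* and 3 each to *Klf4*, *Klf5* and *Klf15*, and from each list up to 4 called genes, otherwise the 2 with the smallest p. Gene positions are from GENCODE M21 (GRCm38).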

Additional observations from a re-analysis of the deposited data

Results flagged for a closer look

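*Klf4* in *Thra1*PV/+ library 1 stood apart from the other 3 mutant libraries, at 5.69 log2 CPM, with a gap that passed Dixon's 95% critical value for 4 samples. That library was also the mutant library richest in stromal markers. Among 20 groups screened (10 members in 2 genotypes), 1 passed, and about 1 in 20 does so by chance.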

How the results depend on the processing

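With 4 libraries per genotype that differ in stroma, muscle and squamous RNA, even differences above 2-fold in the variable members were not called by edgeR. *Klf9*, *Klf2* and *Klf15* were 4.07-fold, 2.55-fold and 2.10-fold lower in mutants, with adjusted p of 0.351, 0.478 and 0.580. *Klf9* kept its negative sign in all alternatives run and was called only by DESeq2 (-2.00), where 1 member was called. Leaving out each library gave -2.70 to -1.54 for *Klf9*, 0 members called, 3 to 7 members at an unadjusted p under 0.05 (7 without WT library 3), 2 to 9 members whose difference from *Klf9* did not overlap (9 without *Thra1*PV/+ library 1, where 84.3% of all genes did not overlap), and 81 to 167 genes called. Against 180 genes called (93.3% higher), 81 were called with at least 10 counts in every library, 311 by voom with quality weights (81.4% higher), 791 by DESeq2 (71.8% higher), and 408 with the stromal marker level as a term, which was added after seeing the data. That term turned the log2 fold changes of *Klf3* to -0.11, *Klf4* to -0.14 and *Klf5* to -0.24. The cause was not tested. The exact p of *Klf10* and *Klf15* relative to *Klf9* was 0.0286 or 0.0571 without 1 library.

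The labels do not state that the replicate numbers pair the samples. The correlation of deviations between same-numbered libraries was 0.27, -0.44, 0.34 and -0.16, and not every library correlated best with its own number. These correlations cannot exclude a pairing. With the replicate block 82 genes and 0 members were called, and *Klf9* was at -2.01 (adjusted p = 0.245). By pairs, *Klf10* and *Klf15* relative to *Klf9* had an exact sign-flip p of 0.125, the smallest that 4 pairs can give.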
